A study of Mus musculus with 5 samples.

Results

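Polycomb group genes encode the subunits of 2 chromatin complexes that keep developmental genes silent. The 10 genes described here were chosen by symbol, and all 10 were found among the 17657 protein-coding genes of the expression table. They are 4 subunits of Polycomb repressive complex 2 (PRC2: Ezh1, Ezh2, Eed and Suz12) and 6 subunits of Polycomb repressive complex 1 (PRC1: Bmi1, Ring1, Rnf2, Cbx2, Cbx7 and Cbx8). All 10 passed the filter on low counts. They were measured by RNA-seq in epidermal stem cells, the keratinocyte progenitors of skin, isolated from male C57BL/6 mice labelled 8 weeks and cultured in the keratinocyte medium KGM2. There were 3 wild-type libraries (WT) and 2 of Angptl4 knockout mice (KO). Angptl4 encodes a secreted inhibitor of lipoprotein lipase, and the labels do not give the part of the gene that was removed. The study is on how Angptl4 acts on the proliferation of these cells. Nothing in the labels ties a library to its own mouse or culture, and the p-values therefore reflect only library-to-library spread, which may be technical. Values per library are given in the order WT1, WT2, WT3 and KO1, KO2, and counts with a library left out follow the same order.

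PRC2 places methyl groups on lysine 27 of histone H3 through its catalytic subunit EZH2 or the paralog EZH1, with EED and SUZ12 as obligate partners. PRC1 places ubiquitin on histone H2A through RING1 or RNF2, is given its identity by a PCGF protein such as BMI1, and in its canonical form binds the PRC2 mark through a chromodomain protein of the CBX family. In epidermis these complexes are known to hold down the Ink4 cell cycle inhibitors and the genes of Merkel cells, the touch-sensing cells of the skin. EZH2 is known to be abundant in dividing cells and EZH1 in resting or differentiated ones.

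In the KO cells the PRC2 core genes Ezh2, Suz12 and Eed were lower, by 2.48-fold, 1.76-fold and 1.28-fold, while Ezh1 was 1.74-fold higher. Among PRC1 genes Cbx7 and Cbx8 were higher, by 2.71-fold and 1.41-fold, Bmi1 was 1.43-fold lower, and Ring1, Rnf2 and Cbx2 did not pass the test. Of the 10 genes 7 passed (3 higher and 4 lower in KO), by edgeR's quasi-likelihood test at an adjusted p of 0.05. Over all 12957 genes tested 40.8% passed, 20.4% higher and 20.4% lower, and the count of 7 is to be read against that share. With WT1, WT2, WT3, KO1 or KO2 left out in turn the 7 became 4, 5, 4, 7 and 8, where 15.2, 17.7, 17.5, 59.7 and 61.0% of all tested genes passed. Ezh2, Suz12, Ezh1 and Cbx7 passed in each of 17 fits, which differed in scaling, test, filter, unit or libraries and in which 12.3 to 61.0% of all tested genes passed. The lowest share is that with the replicate number as a block, and with a separate spread per group the share was 24.6%. In bulk libraries fewer cells of a type and less RNA per cell cannot be told apart.

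The promoters of the 4 genes that passed in every fit are shown because they fell into a pair that was lower (Ezh2 and Suz12) and a pair that was higher (Ezh1 and Cbx7). Each runs from 230 bases before to 20 bases after the RefSeq start on GRCm38.p6, read 5′ to 3′ on the gene's strand. For Ezh2 and Cbx7 that start lies inside the gene span of the deposited table, which reaches further upstream. Capitals mark matches to 4 spellings of the E2F motif (TTTCCCGC, TTTGGCGC, TTTCGCGC or TTTGCCGC) and to 2 spellings of the cell cycle homology region, called CHR here (TTTGAA or TTTAAA), on either strand. The E2F and CHR spellings do not overlap each other in these windows.
Ezh2, chr6:47595011-47595260, minus strand: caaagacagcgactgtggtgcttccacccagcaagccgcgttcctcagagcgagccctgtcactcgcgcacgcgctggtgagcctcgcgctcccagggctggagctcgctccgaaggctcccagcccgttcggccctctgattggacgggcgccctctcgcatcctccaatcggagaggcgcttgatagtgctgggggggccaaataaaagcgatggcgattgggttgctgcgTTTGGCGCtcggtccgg
Suz12, chr11:79992876-79993125, plus strand: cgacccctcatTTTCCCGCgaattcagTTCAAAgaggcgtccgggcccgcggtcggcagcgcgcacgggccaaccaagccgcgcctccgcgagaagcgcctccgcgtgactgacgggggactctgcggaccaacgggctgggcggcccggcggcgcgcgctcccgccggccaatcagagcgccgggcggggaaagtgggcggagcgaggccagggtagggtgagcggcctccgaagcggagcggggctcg
Ezh1, chr11:101226444-101226693, minus strand: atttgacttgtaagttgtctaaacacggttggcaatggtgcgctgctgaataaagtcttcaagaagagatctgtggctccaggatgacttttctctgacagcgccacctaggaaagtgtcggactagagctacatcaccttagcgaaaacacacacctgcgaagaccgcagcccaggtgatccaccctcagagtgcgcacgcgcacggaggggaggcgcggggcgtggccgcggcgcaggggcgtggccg
Cbx7, chr15:79932627-79932876, minus strand: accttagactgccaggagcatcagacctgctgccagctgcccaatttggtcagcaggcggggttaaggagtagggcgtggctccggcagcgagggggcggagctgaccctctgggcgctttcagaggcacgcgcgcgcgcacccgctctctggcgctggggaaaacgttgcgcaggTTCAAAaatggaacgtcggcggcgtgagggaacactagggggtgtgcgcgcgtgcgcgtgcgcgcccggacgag

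Of the 10 genes 9 had a promoter in the table, all but Cbx2. An E2F spelling was present in 2 of the 9, Ezh2 (TTTGGCGC, its first letter at base 4 counted from the start) and Suz12 (TTTCCCGC, at base -219), against 1.95% of 32851 promoters of the same length. A CHR spelling was present in 3 of the 9, Eed, Suz12 and Cbx7, against 24.3% of all promoters. The 9 windows held 13 to 39 CpG pairs and 53.6 to 74.4% G and C, against medians of 6 pairs and 52.8% over all promoters. A match describes these letters only, and a window without one says nothing about binding.

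Libraries held 20283084 to 20773407 expected counts. The targeted gene Angptl4 had 6.97, 5.76 and 4.13 CPM (counts scaled to the library total) in WT libraries against 0.832 and 1.06 CPM in KO libraries. It fell by 2.56 on the log2 scale (edgeR adjusted p = 0.00458), in the direction the labels give. The KO libraries varied more than the WT libraries, with a biological coefficient of variation of 28.9% against 5.22%. Keratinocyte markers were abundant in every library, the 10 summing to 38100 to 39000 TPM (a share of transcripts, scaled for length) in WT and to 48700 and 39000 TPM in KO. Of these 3 were higher and 2 lower in KO, where 20.4% of all tested genes were called lower. The 3 higher were Cdh1, Itgb4 and Krt15, with log2 changes of 0.56, 0.49 and 3.06. Krt15, at 2, 3 and 10 counts in WT and 55 and 30 counts in KO, passed the filter through KO. The count of 3 is therefore partly fixed and is not set against an all-gene share. The 2 lower were Itga6 and Trp63, with log2 changes of -0.91 and -0.73. By estimate alone, 8 of the 10 markers were above 0, with a median log2 change of 0.34. With WT1, WT2 or WT3 left out the 3 became 0, 0 and 1, and the 2 stayed 2. All-gene shares were then 7.62 to 8.81% higher and 7.6 to 8.94% lower. Dropping KO1 or KO2 instead raised the number of markers called higher and did not alter the number called lower, while all-gene shares rose too. Those fits hold 1 KO library and take their spread from the WT libraries alone. Of 11 tested fibroblast markers 6 were higher in KO, with the 12 listed genes, none at 0 in all libraries, summing to 41.8 to 50.6 TPM in WT and to 129 and 60.2 TPM in KO. With a library left out these 6 became 2, 3, 2, 5 and 9. Postn, Col6a2, Pdgfrb and Dcn, at 5 counts or fewer in each WT library, passed the filter through KO. The count of 6 is therefore partly fixed and is not set against the 20.4% of all tested genes called higher. Most of the fibroblast sum in WT came from Fbln1, which was not called. It was at 39.24 to 39.78 TPM in WT and at 71.14 and 38.75 TPM in KO. Among WT libraries WT3 was the lowest for Col1a1 (30, 33 and 3 counts) and Vim (113, 109 and 17 counts). In KO these had 386 and 87 counts and 192 and 83 counts. Of 8 listed immune markers 7 were in the table, and these summed to 41.7 to 56.5 TPM in WT and to 72.7 and 69.5 TPM in KO, the most from Cd68 (41.18 to 47.04 TPM in WT and 65.42 and 56.26 TPM in KO). Cd74 was at 8.11, 6.46 and 0.16 TPM in WT and at 6.97 and 12.65 TPM in KO, and the leukocyte marker Ptprc was at 0.06 TPM or less. Lyz2 went the other way, at 2.14, 2.64 and 0.19 TPM in WT and at 0 and 0.28 TPM in KO. Adgre1 was at 0.03 to 0.07 TPM in WT and at 0 TPM in KO. The 7 melanocyte markers summed to 5.83 to 7.01 TPM in WT and to 8.0 and 11.0 TPM in KO, and the 7 endothelial markers to at most 2.36 TPM in any library. The part of these cell types in the results on the Polycomb genes was not tested. The Merkel cell markers Krt20, Isl1 and Sox2 had 0 counts in both KO libraries and at most 7 counts in a WT library. Of the same list Piezo2 had 2, 0 and 0 counts in WT and 4 and 5 counts in KO. Krt8 was at 3.94 to 7.06 TPM in WT and at 19.13 and 7.87 TPM in KO. Krt18 was at 24.65 to 34.85 TPM in WT and at 12.12 and 16.49 TPM in KO.

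**Figure D1:**
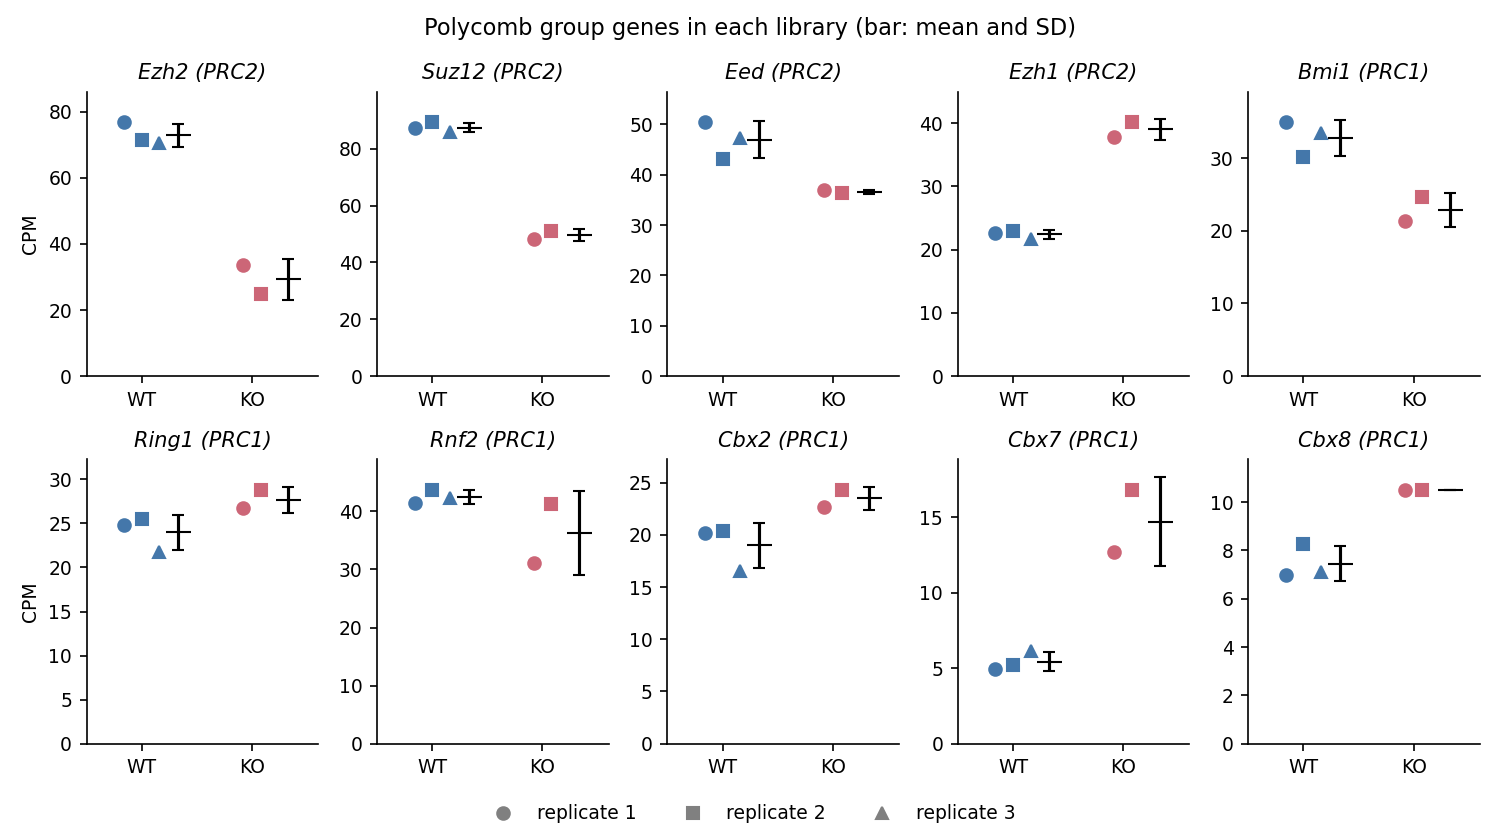
Each panel plots 1 gene, with its level in CPM on the vertical axis from 0 and its group on the horizontal axis; points are libraries (shape gives the replicate number) and the black bar is the mean with its SD. Ezh2, Suz12, Eed and Bmi1 sit lower in KO, Ezh1, Cbx7 and Cbx8 higher, and Rnf2 shows the KO libraries apart at 31.2 and 41.3 CPM.

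Ezh2 (chromosome 6, 47530274 to 47597527 on GRCm38.p6), which encodes the main H3K27 methyltransferase of dividing cells, was measured at 76.7, 71.3 and 70.4 CPM in WT and at 33.7 and 24.9 CPM in KO. The KO values lay far below the WT range, with KO2 the lower. The log2 change was -1.31 ± 0.14 (SE), with an edgeR adjusted p of 0.00368. Of all tested genes 4.01% had a log2 change as low or lower. With only KO1 in the KO group the log2 change was -1.10, and with only KO2 it was -1.55.

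Suz12 (chromosome 11, 79993106 to 80034123), whose product holds PRC2 together, was at 87.1, 89.2 and 86.0 CPM in WT and at 48.1 and 51.2 CPM in KO. The SD was 1.64 CPM in WT (n = 3) and 2.23 CPM in KO (n = 2), far smaller than the gap between the groups. The log2 change was -0.82 ± 0.07 (SE), with an edgeR adjusted p of 0.00232. Eed (chromosome 7, 89954654 to 89982820), whose product reads the H3K27 methyl mark and stimulates the enzyme, was at 50.4, 43.1 and 47.4 CPM in WT and at 36.9 and 36.3 CPM in KO. The groups did not overlap, but the gap from WT2 to the KO libraries was narrower than the range within WT. Eed changed by -0.36 ± 0.09 (SE) on the log2 scale, with an edgeR adjusted p of 0.0296. Leaving out any 1 WT library, giving each group its own spread or blocking on the replicate number ended this call (adjusted p 0.00968 to 0.199 over the edgeR, DESeq2 and limma fits).

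Ezh1 (chromosome 11, 101191115 to 101226463), the paralog of Ezh2 with weaker catalytic activity, went the other way. It was at 22.7, 22.9 and 21.7 CPM in WT and at 37.8 and 40.1 CPM in KO. The groups were well apart, and the libraries within each were close. The log2 change was 0.80 ± 0.08 (SE), with an edgeR adjusted p of 0.0031. With the replicate number as a block the edgeR adjusted p was 0.0455, the highest over the fits (range 2.92e-11 to 0.0455).

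Per length, the balance of the 2 methyltransferase genes differed between the groups. The ratio of Ezh1 to Ezh2 TPM was 0.183, 0.20 and 0.192 in WT and 0.696 and 1.0 in KO. In KO2 the paralogs were thus at the same level, at 18.64 TPM for Ezh1 and 18.61 TPM for Ezh2, whereas in WT1 they were at 10.64 and 58.13 TPM. Their summed level was 63.2 to 68.8 TPM in WT and 42.6 and 37.2 TPM in KO, so the rise of Ezh1 was smaller in TPM than the fall of Ezh2. In WT the order of TPM levels among the 10 genes was Ezh2, Eed, Suz12, Rnf2, Ring1, Bmi1, Ezh1, Cbx2, Cbx8 and Cbx7, and only Ezh1 with Cbx2 and Cbx2 with Cbx8 overlapped as neighbours. In KO the order was Eed, Ring1, Suz12, Rnf2, Ezh2, Ezh1, Bmi1, Cbx2, Cbx8 and Cbx7. There Suz12 with Rnf2, Rnf2 with Ezh2, Ezh2 with Ezh1, Bmi1 with Cbx2 and Cbx8 with Cbx7 overlapped.

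**Figure D2:**
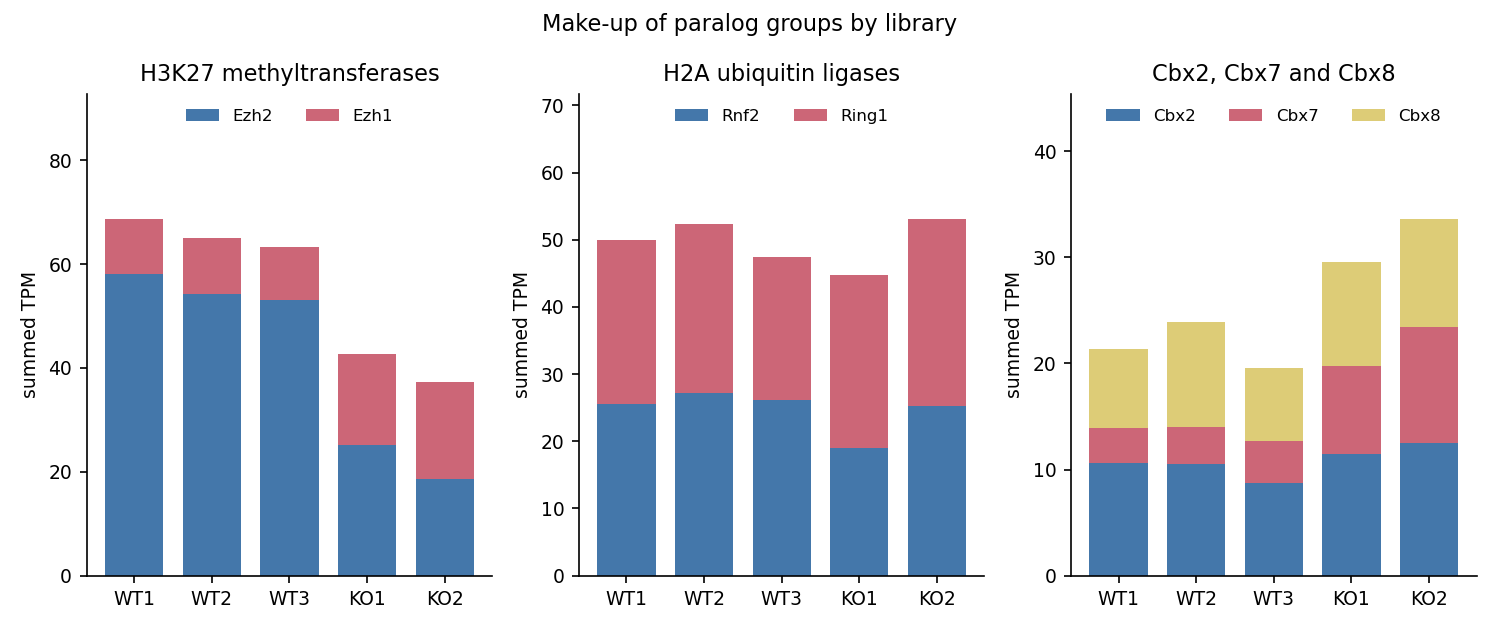
Stacked bars give the summed TPM of paralogs in each library, for the methyltransferases Ezh2 and Ezh1, the ubiquitin ligases Rnf2 and Ring1, and the chromodomain genes Cbx2, Cbx7 and Cbx8. The first sum is lower in KO with a larger Ezh1 part, the second overlaps between groups (47.5 to 52.3 TPM in WT, 44.8 and 53.2 TPM in KO), and the third is higher in KO.

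Of the 6 PRC1 genes the 2 that rose encode chromodomain subunits. Cbx7 (chromosome 15, 79915804 to 79971143), whose product binds H3K27 methylation and is known to hold down the Ink4 locus, was at 4.97, 5.23 and 6.12 CPM in WT and at 12.7 and 16.8 CPM in KO. Both KO libraries lay well above WT, and KO2 was the higher. The log2 change was 1.44 ± 0.18 (SE), with an edgeR adjusted p of 0.00429, and 5.74% of all tested genes had a log2 change as high or higher. Apobec3, a gene on the opposite strand that shares 100 exon bases with Cbx7 (1.54% of the exon bases of Cbx7), was also higher in KO, with a log2 change of 1.77. Its CPM were 14.1 to 16.9 in WT and 63.8 and 40.4 in KO, so KO1 was the higher for Apobec3 and KO2 for Cbx7. Which strand was counted is not stated, and the part of shared reads was not tested.

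Cbx8 and Cbx2 lie on chromosome 11 with 5027 bases between them (119036303 to 119040913 and 119023019 to 119031275). Cbx8, which encodes another reader subunit, was at 6.97, 8.27 and 7.09 CPM in WT and at 10.5 and 10.5 CPM in KO. By CPM the groups did not overlap, and the log2 change was 0.50 ± 0.13 (SE), with an edgeR adjusted p of 0.0332. By TPM they did, since Cbx8 was at 7.4, 9.85 and 6.83 TPM in WT and at 9.79 and 10.21 TPM in KO. The call held in 9 of 17 fits, and it ended on every TPM scale, with any 1 WT library left out, with a separate spread per group and with the replicate number as a block (adjusted p 0.0189 to 0.267 over the edgeR, DESeq2 and limma fits). Cbx2, whose product compacts chromatin, was at 20.2, 20.4 and 16.5 CPM in WT and at 22.7 and 24.3 CPM in KO. Its log2 change of 0.30 ± 0.12 (SE) did not pass (edgeR adjusted p = 0.103), nor did it in any other fit.

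The share of Cbx7 in the summed TPM of Cbx2, Cbx7 and Cbx8 was 15.5, 14.7 and 20.4% in WT and 27.9 and 32.5% in KO. The sum itself was 19.5 to 23.9 TPM in WT and 29.5 and 33.6 TPM in KO, with no overlap. Cbx2 held the largest share of the 3 genes in every library, at 44.0 to 49.8% in WT and 38.9 and 37.1% in KO. Cbx8 held 34.7 to 41.3% in WT and 33.2 and 30.3% in KO, below its WT range although its CPM was higher. Cbx6, a further chromodomain gene, rose by 0.78 ± 0.10 (SE) on the log2 scale and passed in 17 of 17 fits (edgeR adjusted p = 0.0043).

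Bmi1 (chromosome 2, 18677018 to 18686629), a PCGF subunit of canonical PRC1 known from stem cell maintenance, was at 34.9, 30.1 and 33.5 CPM in WT and at 21.3 and 24.6 CPM in KO. The KO values lay below the WT range, and the spread within each group was similar. The log2 change was -0.52 ± 0.11 (SE), with an edgeR adjusted p of 0.0192. The call ended when WT1 or WT3 was left out, with a separate spread per group and with the replicate number as a block (adjusted p 0.00158 to 0.13 over the edgeR, DESeq2 and limma fits). Bmi1 held 9.58 to 11.0% of the summed TPM of the 6 Pcgf genes in WT and 7.19 and 8.06% in KO. Pcgf2, the paralog of Bmi1 in canonical PRC1, held 16.6 to 18.9% in WT and 26.6 and 24.7% in KO and was higher in KO (log2 change 0.42 ± 0.08 SE, edgeR adjusted p = 0.0141, called in 12 of 17 fits). Pcgf3, of a non-canonical PRC1, was the most abundant of them per length in every library, at 45.5 to 47.0% in WT and 44.3 and 41.7% in KO.

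The ubiquitin ligase genes did not pass. Ring1 (chromosome 17, 34020792 to 34024680) was at 24.8, 25.5 and 21.7 CPM in WT and at 26.7 and 28.8 CPM in KO, a log2 change of 0.21 ± 0.10 (SE) with an edgeR adjusted p of 0.164. Rnf2 (chromosome 1, 151469398 to 151500991) was at 41.4, 43.7 and 42.3 CPM in WT and at 31.2 and 41.3 CPM in KO. Only KO1 was clearly below the WT range, and the log2 change of -0.23 ± 0.13 (SE) had an edgeR adjusted p of 0.219. Without KO2 the log2 change was -0.44, and without KO1 it was -0.05. A fit with 1 KO library takes its spread from the WT libraries alone. The ratio of Rnf2 to Ring1 TPM was 1.05 to 1.22 in WT and 0.736 and 0.903 in KO.

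By complex, 3 of 4 PRC2 genes were lower and 1 was higher, and of 6 PRC1 genes 2 were higher, 1 was lower and 3 did not pass. With a library left out, the 3 lower PRC2 genes became 2, 2, 2, 3 and 3, the 2 higher PRC1 genes 1, 1, 1, 2 and 2, and the 1 lower PRC1 gene 0, 1, 0, 1 and 2. The shares of all tested genes called higher were then 7.62, 8.81, 8.68, 29.3 and 30.0%, and those called lower 7.6, 8.94, 8.77, 30.5 and 30.9%. The median log2 change was -0.59 for the PRC2 genes and 0.26 for the PRC1 genes, against 0.02 over all tested genes. Summed TPM of the PRC2 genes was 148 to 157 in WT and 99.2 and 95.0 in KO. Summed TPM of the 6 PRC1 genes overlapped, at 89.4 ± 3.82 (SD, n = 3) in WT and 92.9 ± 10.1 (SD, n = 2) in KO. The ratio of the PRC2 sum to the sum of these 6 PRC1 genes was 1.59 to 1.74 in WT and 1.16 and 0.95 in KO. The 21 other PRC1 genes listed below summed to 589, 609 and 604 TPM in WT and to 512 and 536 TPM in KO. The level sum of the 6 therefore does not stand for all PRC1 genes. In CPM the groups did not overlap for any of the 10 genes, where 66.4% of all tested genes did not overlap, and in TPM they did not for 9 of 10, against 66.2%.

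**Figure D3:**
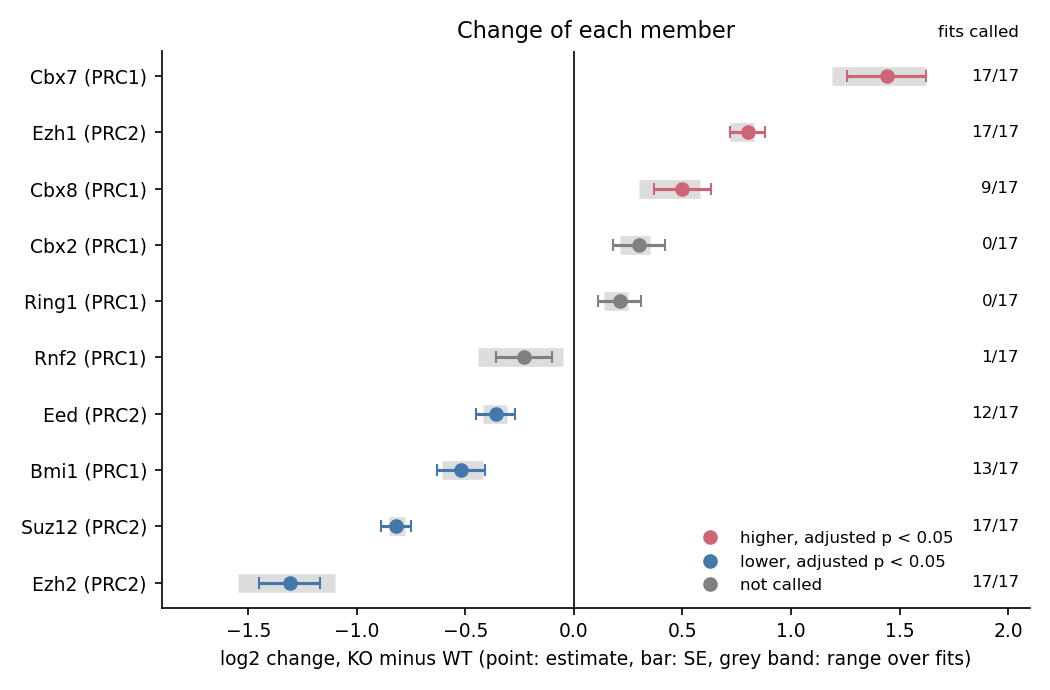
The horizontal axis is the log2 change from WT to KO for each of the 10 genes; points are edgeR estimates with their SE, grey bands give the range over 17 fits, and the numbers at the right count the fits in which the gene passed. The bands of all 10 genes stay on 1 side of 0, and Ezh2, Suz12, Ezh1 and Cbx7 passed in 17 of 17.

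The KO libraries differed from each other by a median of 0.29 on the log2 scale over all tested genes, without sign. Ezh2 was lower in KO2 than in KO1 by 0.43 on that scale (a difference of -0.43), while Rnf2 and Cbx7 were each higher in KO2 by 0.41. The other 7 genes differed between KO1 and KO2 by 0.21 or less. Among WT libraries the range was widest for Cbx2, at 0.30, and narrowest for Suz12, at 0.05, against a median of 0.15 over all tested genes.

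Genes that work with these subunits were followed in lists by complex. Of 10 tested PRC2 partners 4 were lower and 1 was higher, with a median log2 change of -0.42. The histone-binding subunits Rbbp7 and Rbbp4 changed by -0.80 and -0.56, and Aebp2, which helps PRC2 bind nucleosomes, by -0.40. Phf1, a Polycomb-like protein that recruits PRC2, was the 1 that rose, by 0.83. For these 4 the edgeR adjusted p was 0.00269 to 0.0125. Rbbp4 and Rbbp7 also serve in other chromatin complexes. Over all tested genes 20.4% were called in each direction. With a library left out the 4 lower became 2, 2, 2, 7 and 6, and the 1 higher 1, 1, 1, 2 and 1, beside all-gene shares of 7.6 to 30.9% lower and 7.62 to 30.0% higher.

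Of 20 further tested PRC1 genes 5 were higher and 5 lower, with a median of -0.08. Pcgf5, of a non-canonical PRC1, changed by -1.30, from 24.9 CPM in WT to 10.1 CPM in KO. Bcor, a subunit of the PCGF1 complex, changed by -0.81 while its paralog Bcorl1 rose by 0.78, and with Cbx6 these had an edgeR adjusted p of 0.00413 to 0.00499. With a library left out, 2, 2, 2, 7 and 5 genes were higher and 3, 3, 3, 8 and 8 lower. With all libraries, these shares lay near the 20.4% of all tested genes called in each direction.

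Of 10 tested genes of H2A deubiquitination, which removes the PRC1 mark, 2 were higher and 3 lower, near the 20.4% of all tested genes in each direction, with a median of 0.04. Mbd6 rose by 0.64, and the forkhead factor Foxk2, the scaffold Hcfc1 and the deubiquitinase Usp16 changed by -0.50, -0.65 and -0.37 (edgeR adjusted p 0.00537 to 0.0159). Of 17 tested genes of the Trithorax group, which oppose Polycomb, and of H3K27 demethylation, 5 were higher and 5 lower, beside the same 20.4% each way, with a median of 0.06. Smarca2, an ATPase of the SWI/SNF remodeller, rose by 0.85 in the edgeR fit and passed in 14 of 17 fits. By TPM its gap was smaller, at 32.62 to 33.82 TPM in WT and 48.12 and 37.14 TPM in KO. Dpy30, Wdr5 and Rbbp5, shared core subunits of H3K4 methyltransferases, changed by -0.74, -0.46 and -0.30. Across Smarca2, Dpy30, Wdr5 and Rbbp5 the edgeR adjusted p was 0.00357 to 0.0236. The methyltransferase genes Kmt2b, Kmt2c and Kmt2d rose by 0.28, 0.33 and 0.26 and the H3K27 demethylase gene Kdm6b by 0.55 (edgeR adjusted p 0.0265 to 0.0429). The others called lower were Ash2l and Smarcb1, by -0.34 and -0.27 (edgeR adjusted p 0.0269 and 0.0358). With a library left out, the deubiquitination counts became 1, 1, 1, 4 and 2 higher and 1, 1, 1, 4 and 3 lower. The Trithorax counts became 1, 1, 1, 6 and 7 higher and 1, 1, 1, 7 and 6 lower. The all-gene shares were then 7.62, 8.81, 8.68, 29.3 and 30.0% higher and 7.6, 8.94, 8.77, 30.5 and 30.9% lower.

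Of 17 tested proliferation genes 14 were lower in KO, as Ezh2 was, with a median log2 change of -1.50, where 20.4% of all tested genes were lower. With a library left out the 14 became 10, 10, 10, 16 and 15, where the all-gene shares lower were 7.6, 8.94, 8.77, 30.5 and 30.9%. The 3 that did not pass were the marker gene Mki67 (log2 change -1.50) and the E2F factor genes E2f1 (-0.45) and E2f2 (0.30), with edgeR adjusted p of 0.08, 0.0958 and 0.524. The summed TPM of all 17 genes was 1460 to 1590 in WT and 650 and 412 in KO. KO2 was thus the lower library for this sum as for Ezh2. The cyclin gene Ccne2 changed by -2.49, the replication helicase genes Mcm7 and Mcm2 by -1.12 and -1.32 and the sliding clamp gene Pcna by -1.33 (edgeR adjusted p 0.00174 to 0.00253, called in 17 of 17 fits each). The part of the proliferation genes in the fall of Ezh2 was not tested.

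**Figure D4:**
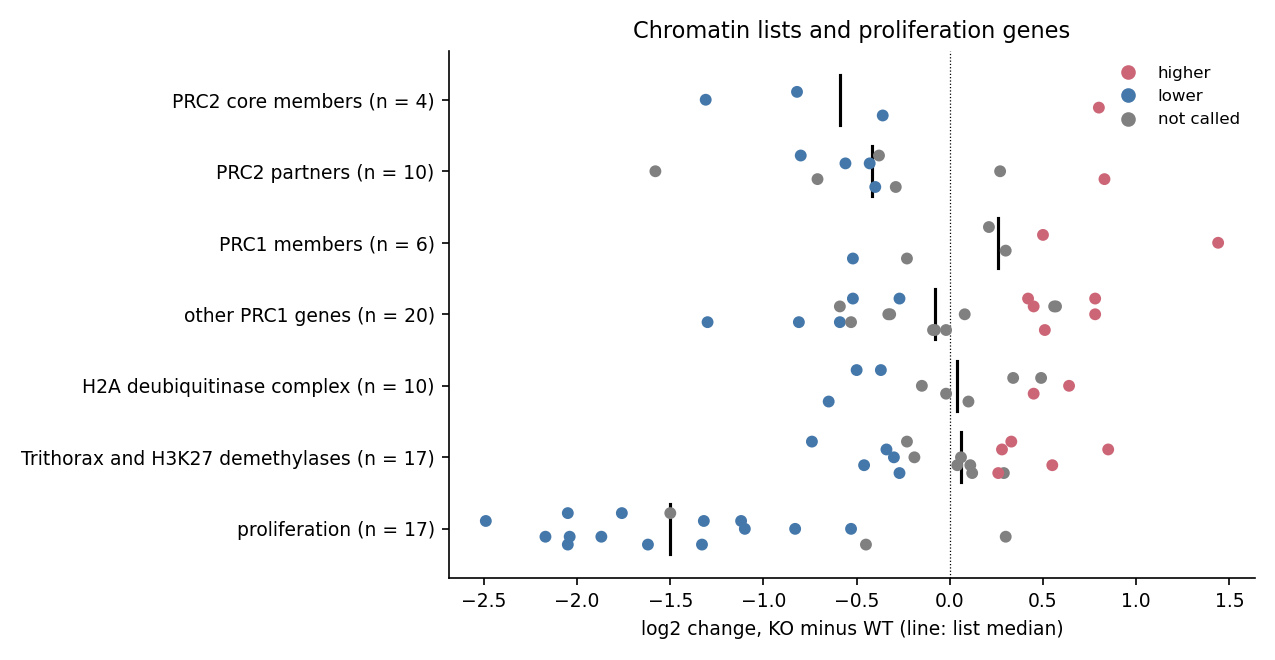
Each point is 1 tested gene at its log2 change from WT to KO, in rows by list, coloured by call at an edgeR adjusted p of 0.05, with a black line at the list's median. The medians are -0.59 for PRC2 core genes, -0.42 for PRC2 partners, 0.26 for the PRC1 genes described here, -0.08 for other PRC1 genes and -1.50 for proliferation genes.

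The genes with profiles nearest to Ezh2 over the 5 libraries, by distance in log2 CPM centred on the WT mean, were Dhcr7 (distance 0.05), Dut (0.08) and Cdc45 (0.08), against a median distance of 1.92 over 11293 genes. Dhcr7 encodes an enzyme of cholesterol synthesis, Dut the dUTPase and Cdc45 a subunit of the replication helicase. Nearest to Ezh1 were Nfe2l1 (0.05), Golgb1 (0.06) and Cnksr3 (0.06), against a median distance of 1.27. Nfe2l1 encodes a transcription factor of proteasome genes and Golgb1 a Golgi tether. These distances rest on 5 libraries in which the groups differ, and they are a description only.

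Genes known to be silenced by Polycomb were followed in further lists. Of 8 Ink4 and Merkel cell genes 4 were tested, of which 2 were higher and 1 lower (2, 2, 2, 2 and 3 higher and 0, 1, 0, 1 and 1 lower with a library left out). Since Cdkn2a passed the filter through its KO counts and Sox2, Isl1 and Krt20 did not pass, this count supports nothing about the list. Of the Ink4 genes, the textbook epidermal targets, Cdkn2b was at 141, 123 and 132 counts in WT and at 1127 and 597 counts in KO, a log2 change of 2.71 ± 0.28 (SE, edgeR adjusted p = 0.00336). Cdkn2a, which encodes INK4A and ARF, had 3, 4 and 3 counts in WT and 237 and 55 counts in KO, a log2 change of 5.41 ± 0.79 (SE, edgeR adjusted p = 0.00642). Both genes passed in 17 of 17 fits, and for both KO1 was the higher KO library. Ezh2 was lower and Cbx7 higher in KO2 than in KO1. The part of Ezh2 or Cbx7 in the rise of the Ink4 genes was not tested. Of the Merkel cell genes, the keratin gene Krt18 fell by 1.02 on the log2 scale, to 14.3 TPM in KO from 29.4 TPM in WT (edgeR adjusted p = 0.0164). Krt8 was at 6.01, 3.94 and 7.06 TPM in WT and at 19.13 and 7.87 TPM in KO and did not pass (edgeR adjusted p = 0.0656). Sox2, Isl1 and Krt20 had 0 counts in KO, which allows up to 0.146 and 0.148 CPM (3 counts per library, counting error only).

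Of 24 developmental regulators known as Polycomb targets in embryonic stem cells, 18 were in the table and 5 passed the filter. Of these 4 were higher and 1 was lower in KO, and with a library left out the 4 higher became 0, 0, 0, 3 and 3. Since low genes pass the filter through the group where they are high, this count supports nothing about the list. The homeobox genes Lhx2 and Dlx5 had 2 to 5 and 25 to 30 counts in WT libraries, 21 and 69 counts in KO1 and 78 and 192 counts in KO2. Gata6 had 1 to 6 counts in WT libraries and 18 in each KO library, and Gata4 had 28 to 32 counts in WT and 7 and 6 in KO. Pax9, the fourth that was higher, had 9 to 13 counts in WT libraries and 23 and 24 in KO. The other 13 genes of this list that were in the table stayed under the filter.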

How the data were processed

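RNA-seq of 5 libraries (WT 3, KO 2, grouped by title) was analysed from 1 deposited table. Its deposited expected counts come from RSEM 1.3.1 and the GRCm38.p6 build, per the submitters' processing notes. RSEM divides reads that match several genes, so 32.1 to 34.0% of values per library were not whole. The deposited TPM and FPKM values are, per the file headers, scaled for transcript length by the authors. Aligner and counted strand were not given in the sources used here.

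After rounding, edgeR 4.0.16 in R 4.3.3 was run (filterByExpr by group, TMM factors 0.988 to 1.02, quasi-likelihood test, two-sided, Benjamini-Hochberg adjustment over 12957 genes, threshold 0.05, no covariate). CPM are counts over library totals times TMM factors. Beforehand the code was tested on simulated data. Other fits used total counts or DESeq2's size factors for scaling, the DESeq2 1.42.0 Wald test, limma-voom (limma 3.58.1) with and without a spread per group, a block for the replicate number, no filter, a minimum mean of 50 counts, log2(TPM + 1), log2(TPM + 0.1), a mean TPM of at least 1, FPKM for ratios, and each library left out. A lone KO library was taken to vary as the WT libraries do.

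The members and lists were chosen with earlier results of these data known, so no p is given for a list or a sum. Named genes are the 10 members, Angptl4, up to 4 genes with the smallest p per list, and the 3 nearest profiles to Ezh2 and Ezh1. Pcgf2, Pcgf3, Apobec3, Trmt1l, Pax9, Cd68, Cd74, Ptprc, Postn, Col6a2, Pdgfrb, Mki67, E2f1, E2f2, Sox2, Isl1 and Krt20 were named after their values were seen, and sums over paralogs and list counts with a library left out were added then. Piezo2, Itga6, Trp63, Lyz2, Adgre1, Dcn, Kmt2b, Kmt2c, Kmt2d, Kdm6b, Ash2l and Smarcb1 were also named after their values were seen. Cdh1, Itgb4, Krt15, Fbln1, Col1a1 and Vim were added then too, as was the sum over the 21 other PRC1 genes. Some genes of the lists are not reported here. Within a group no 2 libraries were copies. A chi-square test of their counts gave 3.45 to 6.46 per degree of freedom for WT pairs and 108 for the KO pair. Pairs across the groups were not compared in this way. Promoters are RefSeq's, on GRCm38.p6, and overlaps between genes were read from GENCODE on the same genome. Gene coordinates are those of the deposited table.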

Additional observations from a re-analysis of the deposited data

How the results depend on the processing

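The 7 members changed became 4 with a separate spread per group and 4 with the replicate block, with 2 lower in place of 4 in each. With 1 library left out they ranged from 4 to 8 changed and from 2 to 5 lower. All genes changed numbered 3192 (1625 higher, 1567 lower) with a spread per group and 1598 (804 higher, 794 lower) with the replicate block. With 1 library left out all genes changed ranged from 1957 to 8068, those higher from 980 to 3975 and those lower from 977 to 4093. Over 16 alternatives no member reversed. Eed lost its call in 5, Bmi1 in 4 and Cbx8 in 8, Rnf2 gained one in 1, Angptl4 lost its own with a separate spread per group, and the other 6 members kept their side of the threshold in all 16. Ratios in FPKM moved by less than 1 SD, and the Ezh1 to Ezh2 ratio in KO, 0.849 with both libraries, was 0.696 in KO1 and 1.0 in KO2. Whether libraries of the same number share a source is not given in the labels. The deviations of WT1 with KO1 and of WT2 with KO2 correlated at 0.01 and 0.07 over genes, and WT3 has no partner in the block. The members had 102 to 1844 counts per library, and depth was not varied.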

Other observations

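In the deposited table the listed strand differed from GENCODE's for 2403 of 16927 genes matched by symbol, among them Ezh2 and Eed, which are listed on the plus strand and lie on the minus strand in GENCODE and RefSeq. Members also share exon bases with genes on the opposite strand, 174 bases for Ezh2 with the long non-coding RNA gene Gm26625 (2.61% of its exon bases), 178 for Suz12 with Gm26563 (3.6%), 261 for Eed with E230029C05Rik (6.82%) and 158 for Rnf2 with the protein-coding gene Trmt1l (3.83%). Those 3 non-coding genes are not in the table used here. Trmt1l was at 39.8 to 42.4 CPM in WT and at 51.1 and 47.0 CPM in KO, and did not pass (edgeR adjusted p = 0.051). The part of such reads in the members' values was not tested.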
